A study of Homo sapiens with 26 samples.

Results

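Notch receptors, ligands and targets were described in 26 single cell-derived cell lines (SCDCLs) of pancreatic ductal adenocarcinoma. The 10 genes were NOTCH1, NOTCH2, NOTCH3, JAG1, JAG2, DLL1, HES1, HES4, HEY1 and LFNG, and each was found by its Ensembl identifier among the 41078 genes of the deposited table, of which 36315 were matched to a symbol. Each SCDCL is a clone grown from 1 cell, and messenger RNA of each was sequenced once. The labels place 12 SCDCLs in BxPC3, called classical-like, and 14 in Panc-1, called basal-like, both human pancreatic cancer lines grown in the same medium. The labels give gemcitabine, a nucleoside analogue used in chemotherapy, as the treatment of all 26 samples, whereas the methods describe it for separate viability assays, and the labels give no response to the drug. A clone has no replicate library, so clones of a set stand in for replicates and the spread between them is a spread between clones.

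The libraries were divided by their level of SMAD4, the signal transducer of the TGF-beta pathway, in TPM, a level corrected for transcript length and for the total of the library. In 12 libraries SMAD4 was at 0 to 0.0440 TPM, and these are called SMAD4-negative. In the other 14 it was at 28.1 to 52.2 TPM, and these are called SMAD4-expressing. The parental BxPC3 line is known to lack SMAD4 and Panc-1 to carry it. Of the 12 libraries labelled BxPC3, 7 were SMAD4-expressing, and of the 14 libraries labelled Panc-1, 7 were SMAD4-negative. The labelled line therefore went against this background in 14 of 26 libraries, and the text speaks of libraries labelled BxPC3 or Panc-1. The SMAD4 sets hold 12 and 14 libraries, as do the labelled lines. A difference between the SMAD4 sets cannot be told apart from a difference between the parental lines, and this was not tested. Since the SMAD4 sets come from measured values, differences between them are given as levels with no test.

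Notch receptors are membrane proteins that are activated by ligands on a neighbouring cell. Ligand binding exposes the receptor to cleavage by ADAM10 and then by gamma-secretase, and the released intracellular part enters the nucleus, binds RBPJ and a Mastermind protein and turns on targets such as the HES and HEY repressors. Fringe enzymes add sugars to the receptor that alter which ligands activate it. In the pancreas the pathway is known for holding progenitors undifferentiated and for its activity in ductal cells.

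The DNA before HES1 and HES4 is shown because both are known as direct targets of the pathway and had different patterns between the SMAD4 sets. The sequences are the 250 bases before the start of each gene in RefSeq (GRCh38.p14), 5′ to 3′ on the strand of the gene, with TGGGAA, the core letters bound by RBPJ, in capitals. HES1 lies on the plus strand and its window is chr3:194135898-194136147. HES4 lies on the minus strand and its window is chr1:1000098-1000347, part of which falls inside the longer HES4 gene of GENCODE 44.
HES1: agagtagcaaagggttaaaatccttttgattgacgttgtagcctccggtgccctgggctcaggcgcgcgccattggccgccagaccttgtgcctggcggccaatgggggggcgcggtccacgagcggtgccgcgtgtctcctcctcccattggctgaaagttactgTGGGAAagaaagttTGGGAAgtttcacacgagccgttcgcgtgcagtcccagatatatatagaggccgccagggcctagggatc
HES4: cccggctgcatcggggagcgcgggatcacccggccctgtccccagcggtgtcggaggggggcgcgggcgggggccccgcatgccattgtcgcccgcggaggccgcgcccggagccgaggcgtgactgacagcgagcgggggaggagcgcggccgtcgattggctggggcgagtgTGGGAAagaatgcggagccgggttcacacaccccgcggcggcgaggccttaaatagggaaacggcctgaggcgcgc
The HES1 window held 2 matches on the strand shown, which began 84 and 70 bases before the start, and the HES4 window held 1, which began 76 bases before it. Of 35116 RefSeq windows of this length, 20.8% held the 6 letters on either strand and 2.90% held 2 or more matches. The longer GTGGGAA was present in both windows and in 5.43% of all windows. RefSeq windows were found for 8 of the 10 genes. The windows of NOTCH1, NOTCH2, NOTCH3, JAG1 and JAG2 held no match, and 1 of 2 windows of LFNG held 1. A match is a string of letters and not a measured binding site.

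Of the 10 genes, 9 had a median of at least 1 TPM in either SMAD4 set and are called measured, and NOTCH3 did not. The ranges of TPM of 7 of the 10 did not overlap between the sets. Over all 15246 measured genes the ranges of 31.0% did not overlap. NOTCH1, JAG1, JAG2, DLL1, HES1 and LFNG, 6 of the 10, were higher in all SMAD4-negative libraries, against 15.2% of all measured genes. NOTCH2 was higher in all SMAD4-expressing libraries, against 15.8%. The median absolute log2 ratio of median TPM was 1.75 over the 9 measured genes and 0.75 over all measured genes. The 10 genes were chosen with earlier results of these data known, so these shares and ratios do not set the pathway apart. The sets also differed in markers of cell state: the sum of 4 mesenchymal markers was 12.4 to 129 TPM in SMAD4-negative and 3109 to 4565 TPM in SMAD4-expressing libraries. Of these 4, VIM and ZEB1 were higher in all SMAD4-expressing libraries, FN1 was higher in all SMAD4-negative ones and the ranges of CDH2 overlapped. The sum of 6 epithelial markers was 4026 to 8126 TPM and 2067 to 8437 TPM, and 3 of the 6, CDH1, EPCAM and KRT7, were higher in all SMAD4-negative libraries. The ranges of KRT8, KRT18 and KRT19 overlapped, with medians of 461, 521 and 1966 TPM in SMAD4-negative and 2053, 1598 and 1220 TPM in SMAD4-expressing libraries. The leukocyte markers PTPRC and CD3E, the endothelial markers KDR and TEK and the fibroblast marker LUM were under 1 TPM in every library. The fibroblast marker COL1A1 had a median of 13.9 TPM in SMAD4-negative and 7.98 TPM in SMAD4-expressing libraries. The endothelial marker PECAM1 had medians of 2.19 and 2.98 TPM, and the ranges of COL1A1 and PECAM1 overlapped between the sets. The endothelial marker CDH5 was higher in all SMAD4-negative libraries, at 1.04 to 13.6 TPM against 0 to 0.0427 TPM. The sums of the 4 immune, 4 endothelial and 4 fibroblast markers were 5.71 to 27.9, 3.21 to 17.2 and 9.65 to 27.95 TPM in SMAD4-negative libraries. They were 42.5 to 141, 0.325 to 5.38 and 2.66 to 39.4 TPM in SMAD4-expressing ones, and nearly all of the immune sum there was CD68, at 42.5 to 141 TPM. The part of these markers in the differences of Notch genes was not tested. As SCDCLs were measured in bulk, fewer cells with a transcript and less of it per cell cannot be told apart.

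**Figure D1:**
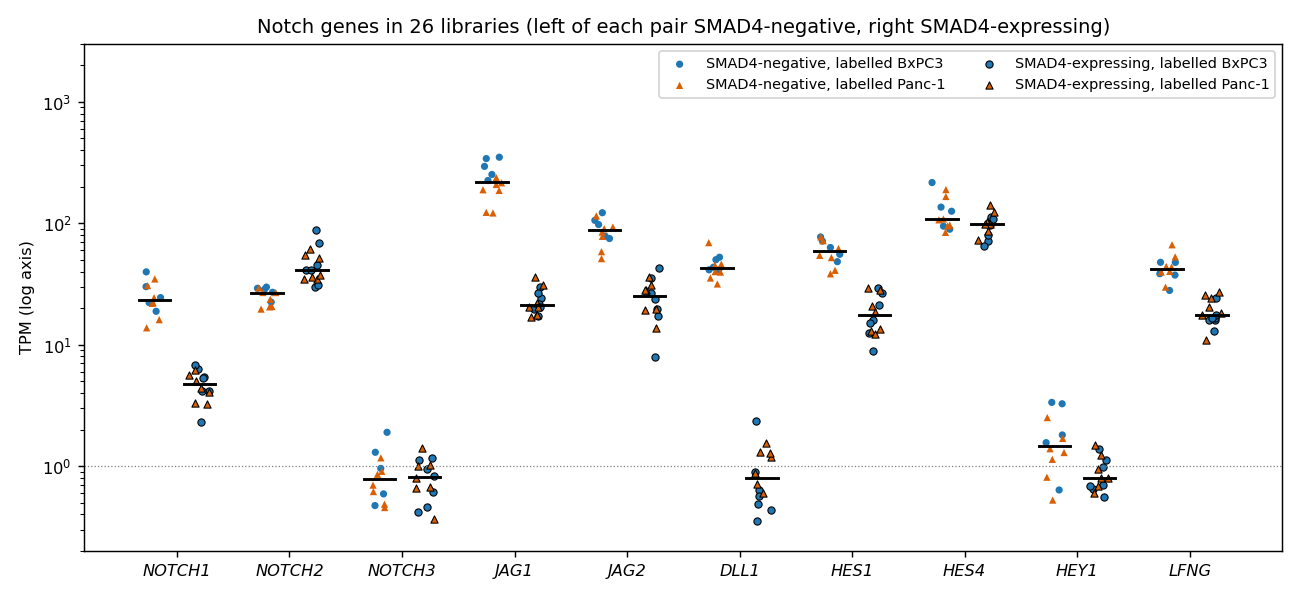
TPM on a log axis of the 10 Notch genes, 1 point per library, with the median of each SMAD4 set as a bar and the labelled line as colour and shape. DLL1 lies at 31.6 to 69.3 TPM in SMAD4-negative libraries and at 0.354 to 2.35 TPM in SMAD4-expressing ones, while the points of HES4, HEY1 and NOTCH3 overlap.

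The receptors differed in opposite directions. NOTCH1 (ENSG00000148400, GRCh38 chr9:136494433-136546048) had its lowest, median and highest level at 13.8, 23.3 and 39.8 TPM in SMAD4-negative libraries and at 2.32, 4.74 and 6.84 TPM in SMAD4-expressing ones. The lowest SMAD4-negative library was above the highest SMAD4-expressing one, and the medians differed 4.92-fold. NOTCH2 (ENSG00000134250, chr1:119911553-120100779) had 19.6, 26.9 and 29.8 TPM in SMAD4-negative libraries and 30.1, 41.3 and 88.5 TPM in SMAD4-expressing ones. The gap between the sets was narrow for NOTCH2, the medians differed 1.54-fold, and the ranges overlapped when counts were divided by DESeq2's size factors. NOTCH2 shares near-identical sequence with NOTCH2NLA, NOTCH2NLB and NOTCH2NLC, so reads could be split between them. The SD of log2 CPM among the deposited re-estimates of its counts was 0.018 in SMAD4-negative and 0.015 in SMAD4-expressing libraries. NOTCH3 (ENSG00000074181, chr19:15159038-15200995) had 0.4553, 0.776 and 1.90 TPM in SMAD4-negative and 0.365, 0.810 and 1.41 TPM in SMAD4-expressing libraries, and its ranges overlapped.

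The make-up of the receptor transcripts followed from these levels. The summed TPM of NOTCH1 to NOTCH4 was 34.8 to 69.3 in SMAD4-negative and 34.8 to 96.4 in SMAD4-expressing libraries, so the sums overlapped. NOTCH1 made up 39.6% to 61.4% of the sum in SMAD4-negative libraries and 5.15% to 12.7% in SMAD4-expressing ones. NOTCH2 was the leading receptor in 14 of 14 SMAD4-expressing libraries, and in the 12 SMAD4-negative libraries NOTCH2 led in 7 and NOTCH1 in 5.

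The ligands of the list were all higher in SMAD4-negative libraries. JAG1 (ENSG00000101384, chr20:10637684-10673999), a Jagged ligand, had its lowest, median and highest level at 122, 220 and 350 TPM in SMAD4-negative and 16.8, 21.2 and 36.3 TPM in SMAD4-expressing libraries, a 10.4-fold difference of medians. JAG2 (ENSG00000184916, chr14:105140982-105168824), the other Jagged ligand, had 51.2, 87.4 and 122 TPM against 7.90, 25.03 and 42.9 TPM, a 3.49-fold difference. DLL1 (ENSG00000198719, chr6:170282206-170306565), a Delta-like ligand, had 31.6, 42.4 and 69.3 TPM against 0.354, 0.797 and 2.35 TPM, a 53.2-fold difference. In none of the 3 genes did the ranges overlap, and in 9 of 14 SMAD4-expressing libraries DLL1 was under 1 TPM.

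DLL3, a Delta-like ligand known to act inside the cell and to inhibit Notch signalling, had the opposite pattern. It was not among the 10 genes and is named because its ranges did not overlap. Its lowest, median and highest level was 0, 0.0914 and 0.383 TPM in SMAD4-negative libraries and 104, 155 and 209 TPM in SMAD4-expressing ones. DLL3 made up 68.8% to 82.7% of the summed ligand TPM in SMAD4-expressing libraries and at most 0.120% in SMAD4-negative ones. JAG1 made up 54.9% to 72.7% in SMAD4-negative libraries. JAG1 was the leading ligand in 12 of 12 SMAD4-negative libraries and DLL3 in 14 of 14 SMAD4-expressing ones, in both labelled lines. The summed ligand TPM, DLL3 included, was 210 to 492 in SMAD4-negative and 151 to 270 in SMAD4-expressing libraries, and these ranges overlapped. Most of the sum in SMAD4-expressing libraries was DLL3, so the overlap does not hold for the other ligands taken singly as given above.

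**Figure D2:**
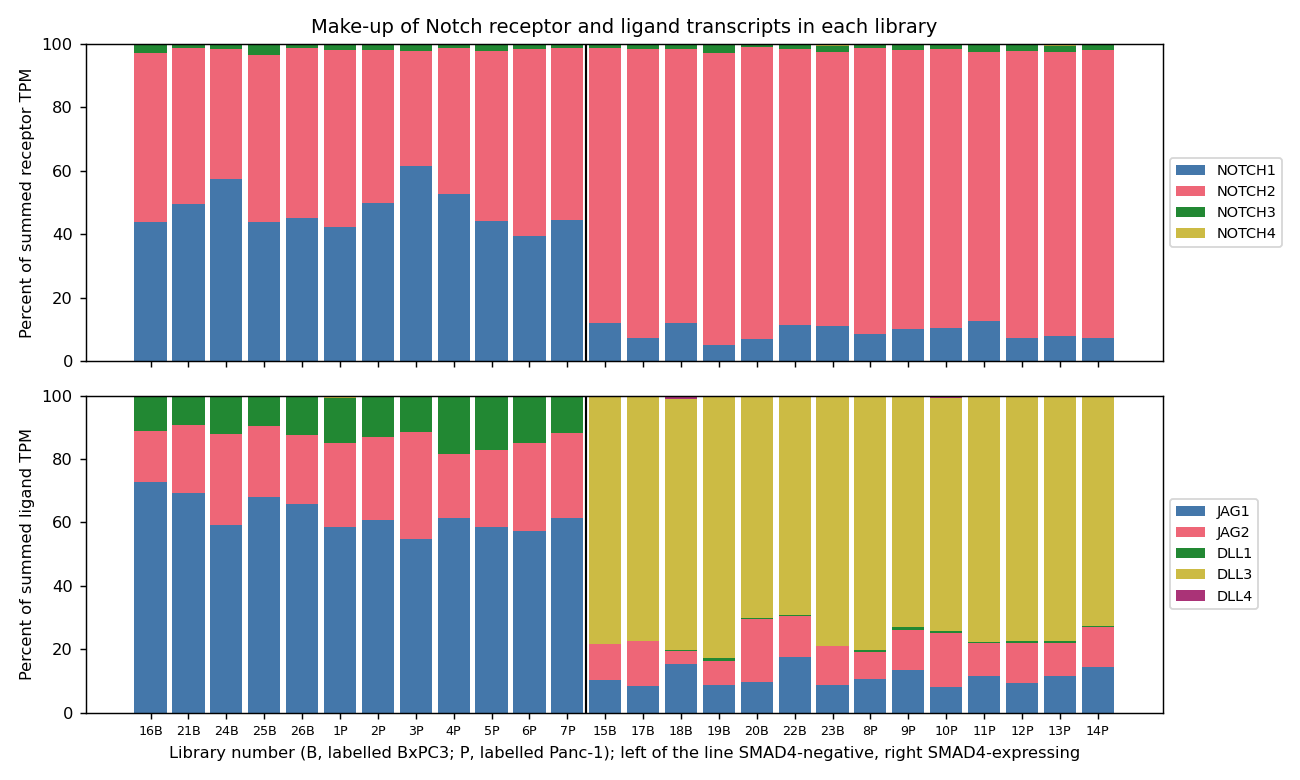
Percent of the summed TPM of Notch receptors (upper) and ligands (lower) contributed by each gene, 1 bar per library, with SMAD4-negative libraries left of the line. NOTCH1 takes 39.6% or more of the receptor sum left of the line and at most 12.7% right of it, and DLL3 takes 68.8% or more of the ligand sum right of it.

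The targets did not move together. HES1 (ENSG00000114315, chr3:194136148-194138732), a transcriptional repressor, had its lowest, median and highest level at 38.4, 58.8 and 77.2 TPM in SMAD4-negative libraries and 8.79, 17.4 and 29.3 TPM in SMAD4-expressing ones, a 3.37-fold difference with no overlap. HES4 (ENSG00000188290, chr1:998962-1000172), a repressor of the same family, had 84.1, 108 and 217 TPM against 65.0, 99.0 and 142 TPM, and its ranges overlapped. HES4 was the most abundant of the 3 targets in all 26 libraries. HEY1 (ENSG00000164683), a related repressor, was low, with 0.524, 1.47 and 3.35 TPM against 0.551, 0.803 and 1.50 TPM, and its ranges overlapped. The windows of HES1 and HES4 printed above both hold GTGGGAA.

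LFNG (ENSG00000106003, chr7:2512529-2529177), the fringe enzyme of the list, had 28.0, 41.8 and 66.5 TPM in SMAD4-negative and 10.9, 17.5 and 26.99 TPM in SMAD4-expressing libraries, a 2.38-fold difference with no overlap. Among the 3 fringe enzymes LFNG was the most abundant in 11 of 12 SMAD4-negative libraries. RFNG was the most abundant in the other one and in 14 of 14 SMAD4-expressing libraries.

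A list of 64 further genes of the pathway held 53 measured genes, of which 11 had ranges that did not overlap, 5 higher in SMAD4-negative and 6 higher in SMAD4-expressing libraries. This is a smaller share than the 31.0% over all measured genes, and the genes named here are given as levels. The median absolute log2 ratio over the 53 was 0.68. Of 8 genes for receptor cleavage, ADAM10 had ranges that did not overlap, with a median of 403 TPM in SMAD4-negative and 153 TPM in SMAD4-expressing libraries. Of 11 measured genes for ligand endocytosis and receptor turnover, DTX2, DTX3L and DTX4 of the Deltex family of ubiquitin ligases were higher in SMAD4-negative libraries. DTX4 had a median of 15.9 TPM there and 0.0288 TPM in the others. Of 16 genes for the nuclear complex and its corepressors, the coactivator MAML2 was higher in SMAD4-negative libraries, at a median of 8.95 against 1.14 TPM. The coactivator MAML3 and the corepressor TLE3 were higher in SMAD4-expressing libraries, with medians of 2.32 against 0.413 TPM and 32.2 against 16.8 TPM. RBPJ, the DNA-binding partner, had medians of 31.8 TPM in SMAD4-negative and 29.4 TPM in SMAD4-expressing libraries, and its ranges overlapped.

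Among 4 other measured HES genes and targets, HES2 and HES6 were higher in SMAD4-expressing libraries. HES6, known to oppose HES1, had a median of 26.7 TPM there and 4.27 TPM in SMAD4-negative libraries. HES2 had 16.9 and 3.15 TPM. NOTCH2NLB, a partial copy of NOTCH2, had 3.54 and 0.907 TPM. None of the 9 genes for receptor glycosylation and furin had ranges that did not overlap.

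**Figure D3:**
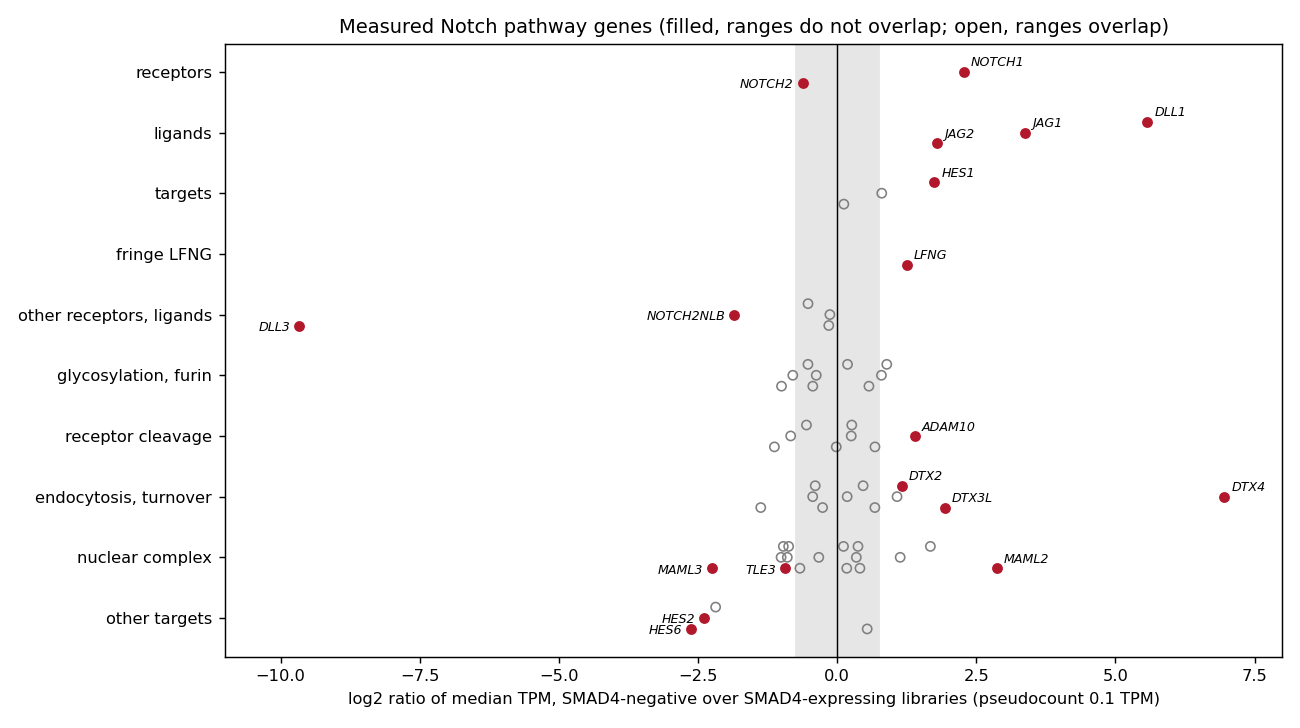
Log2 ratio of median TPM of SMAD4-negative over SMAD4-expressing libraries for each measured pathway gene, by role, with a pseudocount of 0.1 TPM, and a grey band that spans the median absolute ratio of all measured genes, 0.75. Filled points have ranges that do not overlap, and DLL3 and DTX4 lie farthest to the left and right.

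The SD of log2 CPM (estimated counts scaled to the library total) between libraries was over 2 times the SD among the deposited re-estimates of a library's own counts, a measure of counting and assignment error, for 9 of 9 measured genes in SMAD4-negative and 7 of 7 in SMAD4-expressing libraries. The same held for 91.0% and 91.5% of all measured genes, so it does not set the Notch genes apart. In SMAD4-negative libraries NOTCH2 varied little, with an SD of 0.19, JAG1 and HES4 had SDs of 0.45 each, and HEY1 had the highest of the measured Notch genes, 0.64, at a low level. In SMAD4-expressing libraries JAG2 had an SD of 0.62 and HES1 an SD of 0.54.

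The extremes fell on few libraries. Library 6, labelled Panc-1, was the lowest SMAD4-negative library for NOTCH1, JAG1, DLL1, HES1, HES4 and HEY1. Library 24, labelled BxPC3, was the highest for NOTCH1, JAG2 and HES4. Among SMAD4-expressing libraries, library 20, labelled BxPC3, was the highest for NOTCH1, NOTCH2 and JAG2 and the lowest for HES1 and HEY1. Library 18, labelled BxPC3, was the lowest for NOTCH2, JAG2, DLL1 and HES4 and the highest for HES1. Of the SMAD4-negative libraries, library 6 also had the fewest genes at 1 TPM or more, 13471, and library 24 the most, 15048. Libraries 20 and 18 had 13870 and 13533, within the 13397 to 14029 of the SMAD4-expressing set. How often these libraries were extreme over all genes was not computed.

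Whether receptors and ligands rose and fell with targets among clones was tested within each set on log2(TPM + 0.1), over 28 relations of genes measured in that set. For Pearson's r, none had a Benjamini-Hochberg adjusted permutation p under 0.05, and 4 had an unadjusted p under 0.05. For Spearman's rho, none had an adjusted permutation p under 0.05 either, and the smallest was 0.210. The permutation p-values given below for rho are unadjusted. In the 12 SMAD4-negative libraries NOTCH1 and HES4 had Pearson's r = 0.78 (permutation p = 0.00272, adjusted p = 0.0762), with Spearman's rho = 0.66 (permutation p = 0.0225). Without the 2 libraries farthest from the median of NOTCH1, r was 0.62.

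In the 14 SMAD4-expressing libraries JAG2 and HES4 had r = 0.65 (permutation p = 0.0116, adjusted p = 0.163), rho = 0.68 (permutation p = 0.00923), and r = 0.61 without the 2 farthest libraries. JAG2 and HES1 had r = -0.56 there (permutation p = 0.0331, adjusted p = 0.232), rho = -0.59 (permutation p = 0.0299), and r = -0.69 without the 2 farthest. NOTCH2 and HES1 had r = -0.59 (permutation p = 0.0259, adjusted p = 0.232), rho = -0.52 (permutation p = 0.0589), and r = -0.25 without libraries 20 and 17, so that relation rests on them. In the 12 SMAD4-negative libraries JAG2 and HES1 had the opposite sign, with r = 0.55 (permutation p = 0.0639, adjusted p = 0.270). Their rho there was 0.69 (permutation p = 0.0154), and r was 0.66 without the 2 farthest libraries. With CPM and TMM factors in place of TPM, r was 0.32 there (permutation p = 0.315, adjusted p = 0.579). With the same scaling r was -0.61 in SMAD4-expressing libraries (permutation p = 0.0198, adjusted p = 0.153). The strength of the positive relation thus depended on the scaling.

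**Figure D4:**
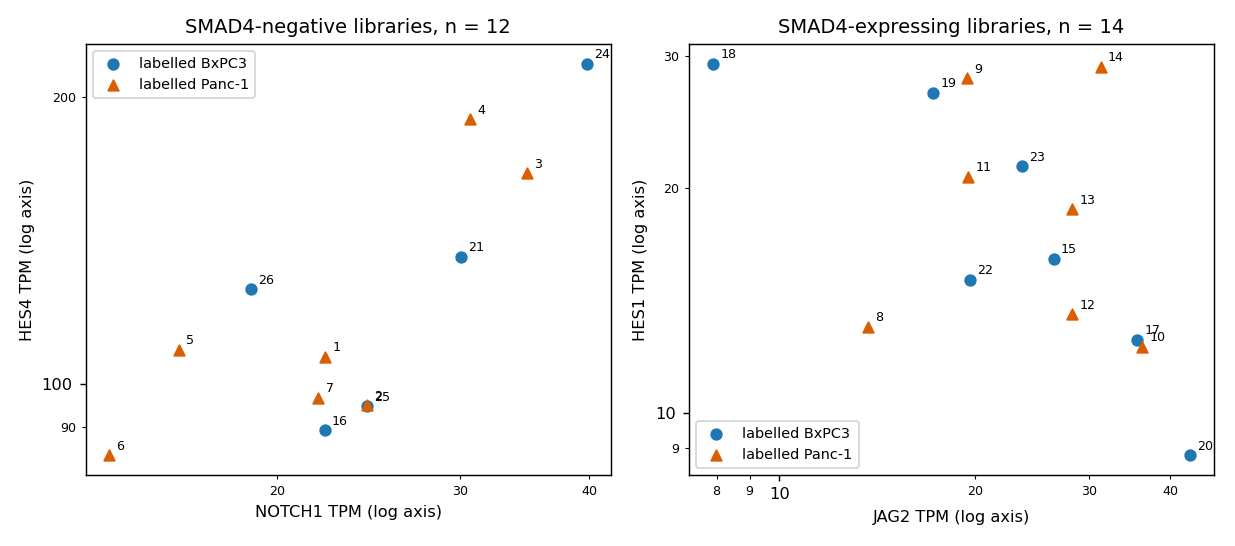
TPM on log axes of NOTCH1 and HES4 in the 12 SMAD4-negative libraries (left) and of JAG2 and HES1 in the 14 SMAD4-expressing libraries (right), 1 numbered point per library. HES4 is highest in library 24, which has the most NOTCH1, and HES1 is lowest in library 20, which has the most JAG2.

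For each measured gene the gene with the most similar levels was found by Pearson's correlation of log2(TPM + 0.1) after the mean of each SMAD4 set was subtracted, as a description. Over 26 libraries and 11639 genes these were KREMEN2 for NOTCH1 (r = 0.78), FZD4 for NOTCH2 (0.82) and JAG2 (0.78), APP for JAG1 (0.78), TEAD3 for HES1 (0.82), MIIP for HES4 (0.75) and HOMER3 for LFNG (0.65). Over the 12 SMAD4-negative libraries and 13241 genes they were SCPEP1 for DLL1 (0.92) and AKR1C1 for HEY1 (0.87). The libraries share 1 sequencing provider and their totals differ, and the best of so many genes is high by choice.

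The libraries labelled BxPC3 and Panc-1 were compared with edgeR's quasi-likelihood test with the SMAD4 set in the fit. The line is the only group that the labels give. As labels went against the SMAD4 background in many libraries, this test compares labels and cannot decide whether Notch genes differ between the parental lines. The study itself compared more resistant with more sensitive SCDCLs within each line, and that comparison was not made here. Of 17456 genes, 0 (0%) passed an adjusted p under 0.05 with an absolute log2 fold change over 1, and 1295 (7.42%) had an unadjusted p under 0.05. DESeq2 called 2 genes, neither in the Notch lists. None of the 10 Notch genes had an unadjusted p under 0.05. The log2 fold change of libraries labelled Panc-1 over those labelled BxPC3 ranged from -0.28 for JAG1 (SE 0.14, edgeR adjusted p = 0.681) to 0.24 for LFNG (SE 0.13, edgeR adjusted p = 0.694). Without library 19, labelled BxPC3, 3 of the 10 had an unadjusted p under 0.05, JAG1, DLL1 and LFNG, where 8.34% of all genes did, and none passed adjustment. Of the 57 further pathway genes tested, 0 were called.

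JAG1 had the smallest p of the 10 genes between labels within a set. In the 5 SMAD4-negative libraries labelled BxPC3 it was at 225, 252, 294, 341 and 350 TPM, and in the 7 labelled Panc-1 its lowest, median and highest level was 122, 189 and 238 TPM. The ranges overlapped, and the log2 fold change was -0.64 (SE 0.17, unadjusted edgeR p = 0.00255, adjusted p = 0.404), where 11.4% of all genes had an unadjusted p under 0.05. Over the alternatives run, the adjusted p of JAG1 between labels was 0.404 to 0.9999. In SMAD4-expressing libraries the log2 fold change of JAG1 was 0.026 (SE 0.18). There 0 of the 10 genes had an unadjusted p under 0.05, against 4.62% of all genes. The difference of these effects had an interaction of -0.68 (SE 0.26, unadjusted edgeR p = 0.0141, adjusted p = 0.614), and no gene of 17456 passed that test after adjustment, with 1357 (7.77%) at an unadjusted p under 0.05. JAG1 was 1 of the 10 with an unadjusted p under 0.05 in the SMAD4-negative libraries and in the interaction, and no other of the 10 was.

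**Figure D5:**
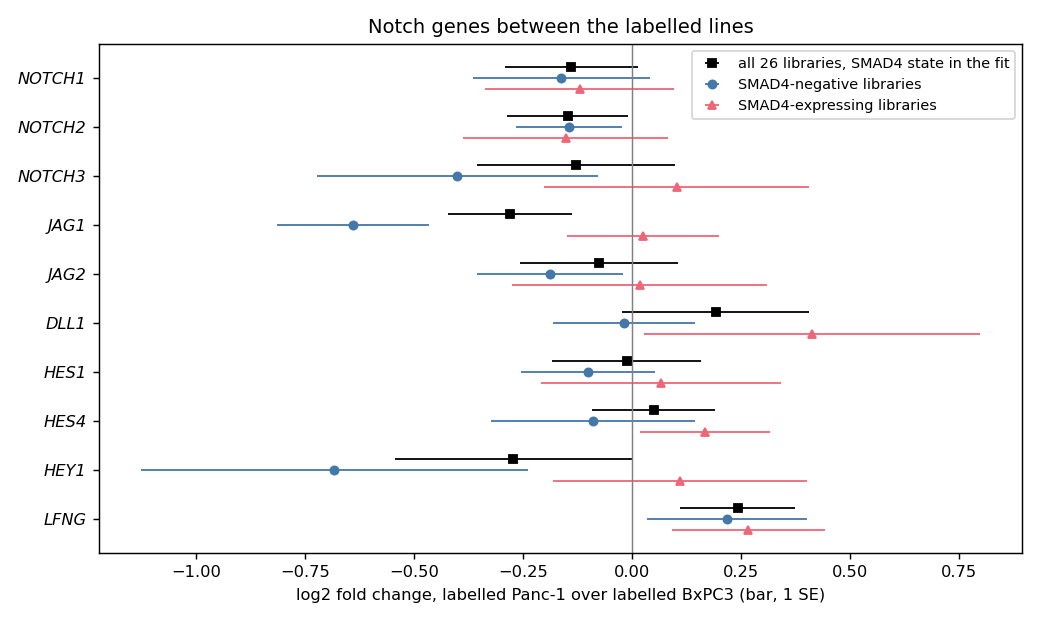
Log2 fold change of libraries labelled Panc-1 over libraries labelled BxPC3 for the 10 Notch genes, with bars of 1 SE, in all 26 libraries with the SMAD4 set in the fit and within each set. JAG1 in SMAD4-negative libraries lies at -0.64, and in SMAD4-expressing ones at 0.026.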

How the data were processed

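Poly-A RNA of 26 SCDCLs was sequenced from strand-specific libraries. The authors quantified reads with kallisto 0.46.1 on a GRCh38 transcriptome. They deposited TPM and estimated counts per gene, with 30 re-estimates by kallisto of the counts of each library. The estimated counts are length-scaled TPM, that is, TPM brought back to the scale of counts, and not kallisto's own expected counts. The strand setting of kallisto is not given in the sources used here. Totals were 27035724 to 34945608 estimated counts per library (median 29623513), and counting error and the assignment of reads to similar transcripts limit genes with few reads. No pair of the 325 pairs of libraries agreed within counting noise.

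Groups came from the labels, and libraries were divided at 1 TPM of SMAD4. Genes counted as measured with a median of at least 1 TPM in either set. Log2 ratios of medians used a pseudocount of 0.1 TPM, fold differences of medians used none, and spreads used log2(CPM + 0.5). Estimated counts were rounded and tested with edgeR 4.0.16 (quasi-likelihood, TMM factors) after a filter on low counts, with Benjamini-Hochberg adjustment. DESeq2 1.42.0 and limma 3.58.1 were alternatives. Correlations used 100000 permutations. Clones are the replicates, so p-values set an effect against the spread between clones, and not between separate cultures of a line. Analyses used R 4.3.3 and Python 3.11.15, and were tested on simulated data. Symbols and positions came from GENCODE 44, and promoter windows from RefSeq.

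The 10 genes, the pathway lists and the marker lists were chosen with earlier results of these data known. Named were these 10 genes, pathway genes whose ranges did not overlap or that passed the label test, the gene most like each measured gene, SMAD4 and the markers. RBPJ, RFNG, NOTCH4, NOTCH2NLA and NOTCH2NLC fall outside this rule and were named after their values were seen. Alternatives covered scaling, filters, pseudocount, tool, label, SMAD4 set and each library left out.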

Additional observations from a re-analysis of the deposited data

Results flagged for a closer look

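Within the 4 combinations of labelled line and SMAD4 set, 33 combinations of a measured gene and a set of libraries were checked for a library far from the others. Of the 33, 2 stood apart. Chance gives about 1 in 20, so 2 of 33 is near what chance gives. DLL1 was at 69.3 TPM in library 4, a SMAD4-negative library labelled Panc-1, and at 31.6 to 46.0 TPM in the 6 others of that kind. LFNG was at 24.0 TPM in library 19, a SMAD4-expressing library labelled BxPC3, and at 13.05 to 17.5 TPM in the 6 others of that kind.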

How the results depend on the processing

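The 7 Notch genes with ranges that do not overlap were 7 with CPM, with a minimum of 5 TPM, with no filter, within each label and without each library in turn, and 6 with DESeq2's size factors, which lost NOTCH2. Of the 53 further pathway genes, 11 became 20 within the libraries labelled BxPC3 and 19 within those labelled Panc-1, where fewer libraries make an overlap less likely and the share over all measured genes was 42.1% and 43.3%. The label test called 0 genes and 2 with DESeq2, and 0 of the 10 Notch genes under every alternative run. Small label differences changed sign: the log2 fold change became 0.014 for NOTCH1 and 0.070 for HES1 without the SMAD4 set in the fit. In SMAD4-expressing libraries it became 0.10 for NOTCH3, 0.026 for JAG1, 0.018 for JAG2, 0.067 for HES1 and 0.11 for HEY1. In SMAD4-negative libraries it became -0.017 for DLL1 and -0.089 for HES4. The cause was not tested. Dropping 1 library at a time gave values from -0.084 to 0.072 for HES1, from -0.0071 to 0.14 for HES4, from -0.16 to 0.020 for JAG2 and from -0.23 to 0.020 for NOTCH3. The correlations called 0 relations under every alternative run. No paired analysis was possible because the labels share no replicate numbers between the lines. Levels under 1 TPM, as of NOTCH3 and of DLL1 in SMAD4-expressing libraries, rest on few reads.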
